A study of Rattus norvegicus with 5 samples.

Results

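The transcripts of neurotransmitter receptors were measured on Affymetrix rat arrays of fetal hypothalamic cells. A gene was counted as a receptor gene where its symbol begins like those of the glutamate, GABA, glycine, acetylcholine, serotonin, dopamine or adrenergic receptors, or where it is *Cnr1*. This rule uses names only and took 91 of the 4736 genes on the array, with 141 of 8740 probe sets. Of the 91 genes, 90 encode receptor subunits. The other, *Grina*, fits by its letters and encodes a membrane protein named for an association with the NMDA receptor. The 90 genes comprised 50 subunits of ligand-gated channels and 40 of G protein-coupled receptors. Where a gene has several probe sets, the brightest on average was used.

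Ligand-gated channels open when transmitter binds and act within milliseconds. They are assembled from several subunits, and the subunit makeup sets the ion that passes and the kinetics. The G protein-coupled receptors act more slowly, through second messengers. In the hypothalamus, GABA is the most common fast transmitter and glutamate the main excitatory one. Neurons that make thyrotropin-releasing hormone (TRH) receive both, as well as catecholamines from the brainstem.

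All 5 arrays held RNA of primary cultures from the hypothalamus of Wistar rat embryos at day 17. The GFP+ cells (2 arrays, a pool of 6 experiments) had been transfected with GFP under a minimal *Trh* promoter and were sorted for GFP 48 h later. The GFP+/- cells (2 arrays, a pool of 3 experiments) had the same transfection and went through the sorter without selection, so they hold both GFP-positive and GFP-negative cells. The NT cells (1 array, a pool of 3 experiments) were not transfected. A GFP+ cell is one in which a transfected promoter was active, which need not be a TRH neuron. Transfection and the passage through the sorter cannot be told apart in any comparison with NT cells. The labels call the 2 arrays of a population biological replicates, whereas the methods describe aliquots of one pooled RNA, so p-values measure only the spread between arrays.

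Values are MAS 5.0 signals, a linear intensity for each probe set. Each array had been scaled to a trimmed mean of 500, and the median signal was between 102 and 116 on the 5 arrays. The log2 signals of 2 arrays correlated at 0.9584 for GFP+ and 0.9669 for GFP+/- cells, across 8740 probe sets that are not independent of each other, and the NT array correlated with the other 4 at 0.9098 to 0.9239. The *Gapdh* signal ratio of 3′ to 5′ probe sets, a measure of RNA integrity, was 14.6 and 17.6 on the GFP+ arrays and 12.7 and 14.2 on the GFP+/- arrays, against 5.45 on the NT array. Neuron markers (12 of 15 listed genes on the array) summed to signals of 31827 and 27150 in GFP+ and 21305 and 22844 in GFP+/- cells, against 43656 in NT cells. Fibroblast and matrix markers (9 of 9) summed to 13963 and 20146 in GFP+ and 42523 and 41874 in GFP+/- cells, against 18458 in NT cells. Endothelial and mural markers (5 of 7) summed to 1842 and 3579 in GFP+ and 8872 and 11111 in GFP+/- cells, against 1470 in NT cells. Most of each sum came from the mural genes *Acta2* and *Tagln*. The endothelial genes *Pecam1*, *Kdr* and *Vwf* had log2 differences of 0.03, 0.11 and 0.23 between GFP+ and GFP+/- cells. Microglia markers (6 of 7) summed to 754 and 611 in GFP+ and 426 and 366 in GFP+/- cells, against 591 in NT cells. Astrocyte markers (7 of 8) summed to 5344 and 7306 in GFP+ and 5229 and 4340 in GFP+/- cells, against 5012 in NT cells. The largest part of each sum was *Slc1a3*, with 3478 and 5392 in GFP+ and 3314 and 2683 in GFP+/- cells, against 2213 in NT cells. The sums of oligodendrocyte markers (7 of 8) ranged from 1466 to 1689 over the 5 arrays. *Trh* itself had 115 and 141 in GFP+ and 109 and 106 in GFP+/- cells, against 96.6 in NT cells (GFP+ minus GFP+/- 0.24, SE 0.29, adjusted p = 0.761). Differences were tested on the log2 scale with limma, adjusted by Benjamini-Hochberg over all 8740 probe sets, and a gene was called at an adjusted p under 0.05. In these bulk samples fewer cells of a type and less RNA per cell cannot be told apart. The number of arrays limits the precision.

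Receptor transcripts were mostly dim. The mean signal over the 5 arrays was between 2.82 and 1000 for the 90 subunits, with a median of 75.9. Among the brightest 41% of all probe sets, those with a mean above 175, there were 23 receptor subunits and *Grina*. This mean includes the NT array, and *Gria2* and *Gabra5* passed it only through their NT signals of 1029 and 826. These 23 subunits included inhibitory channels (*Gabrb2*, *Gabra5*, *Glra2*), both GABA-B subunits and genes of every other family except the delta glutamate and the beta adrenergic receptors. *Htr1f*, a serotonin receptor, had the lowest mean, with 3.98 and 1.99 in GFP+ and 4.80 and 1.78 in GFP+/- cells, against 1.52 in NT cells. Presence or absence was not called for any receptor.

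**Figure D1:**
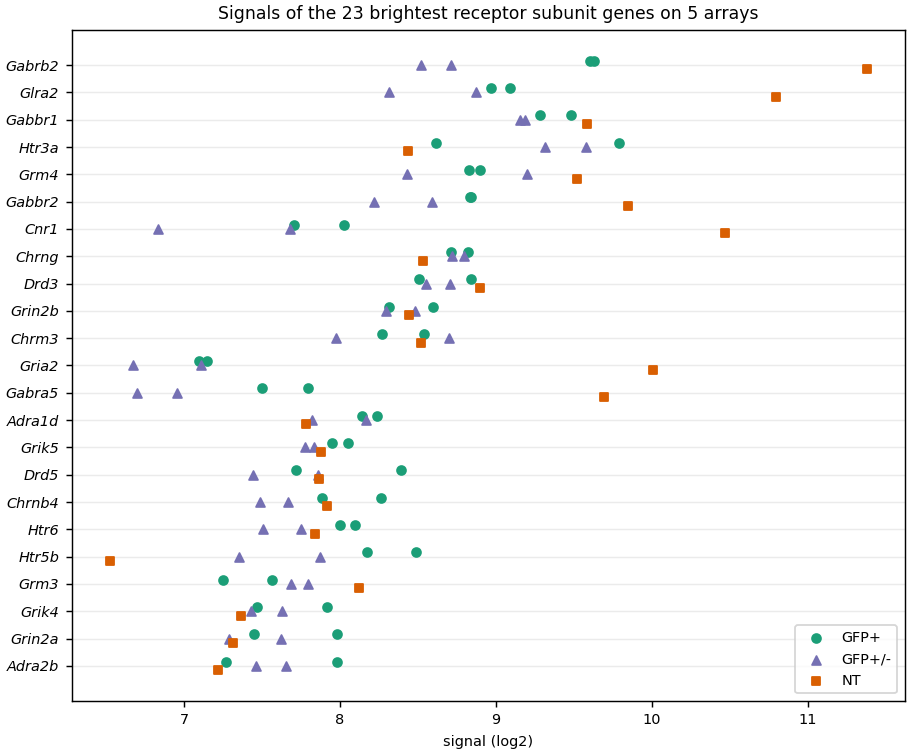
MAS 5.0 signal (log2 axis) of the 23 receptor subunit genes whose probe set is among the brightest 41%, with 1 point for each of the 5 arrays (circles GFP+, triangles GFP+/-, squares NT). Among the genes called against NT cells, the NT square lies to the right of the other 4 points for *Gabrb2*, *Glra2*, *Gabbr2*, *Cnr1*, *Gria2* and *Gabra5* and to the left of them for *Htr5b*. The mean that picked these genes includes the NT array, and *Gria2* and *Gabra5* entered only through it. Levels of different genes are not comparable, since each probe set binds its target with its own strength.

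GFP+ cells were first set against GFP+/- cells, to ask whether receptor transcripts differed in cells sorted for *Trh* promoter activity. No receptor gene was called. The transcripts with the smallest p were higher in GFP+ cells, namely those of the NMDA receptor subunit *Grin1*, the GABA-A subunits *Gabrb2*, *Gabrg1* and *Gabra5*, and the nicotinic subunit *Chrna7*. With limma, 0 of 91 genes and 0 of 8740 probe sets passed the adjusted threshold (0.0%). At an unadjusted p under 0.05, 10 receptor genes were higher and 2 lower, where 8.7% of all genes were higher and 5.07% lower. By the ratio of averaged signals, 8 receptor genes exceeded 2-fold upwards and 4 downwards in GFP+ cells, where 6.97% and 3.72% of all genes did so. The arrays of the 2 populations did not overlap for 30 higher and 12 lower receptor genes, beside 30.2% and 16.3% of all genes. The median log2 difference was 0.17 over the 91 genes and 0.11 over all genes, and 66 of 91 genes were above 0. With the arrays scaled to equal medians, the median was 0.02 over the receptor genes, with 50 of 91 above 0, and -0.03 over all 8740 probe sets, for which it was 0.13 as deposited. When only the brightest 41% of probe sets were fitted, *Gabrb2* passed (adjusted p = 0.0248, limma). Neuron markers had a median of 0.48 and fibroblast and matrix markers one of -1.53 in this comparison. Microglia markers had 0.92, striated muscle markers 0.39, astrocyte markers 0.09, endothelial and mural markers 0.03 and oligodendrocyte markers -0.18. The part of these cell types in the receptor values was not tested.

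GFP+ cells and GFP+/- cells were each set against NT cells, and the same single NT array entered both comparisons. In GFP+ cells 7 of 91 receptor genes were called lower and 1 higher, where 4.1% of all genes were lower and 4.31% higher. The 7 lower transcripts were *Gabrb1*, *Gabrb2*, *Gabra5*, *Glra2*, *Gria2*, *Grik1* and *Cnr1*, and the higher one was *Htr5b*. In GFP+/- cells 10 were called lower and 1 higher, where 5.32% of all genes were lower and 4.54% higher. These 10 were the 7 named for GFP+ cells together with *Gabbr2*, *Grin1* and *Htr7*, and the higher one was *Gabrd*. Of the lower calls, 6 in GFP+ and 7 in GFP+/- cells were channel subunits. By the ratio of averaged signals, 10 receptor genes were over 2-fold higher and 15 lower in GFP+ than in NT cells (13.6% and 11.1% of all genes), and 10 were higher and 17 lower in GFP+/- than in NT cells (11.7% and 13.8%). At an unadjusted p under 0.05, 6 receptor genes were higher and 13 lower in GFP+ than in NT cells (14.3% and 12.0% of all genes), and 7 were higher and 14 lower in GFP+/- than in NT cells (13.0% and 14.0%). The median log2 difference over the 91 genes was 0.00 for GFP+ and -0.18 for GFP+/- cells, beside 0.09 and -0.05 over all genes. The neuron markers had medians of -0.65 and -1.25 in these comparisons, with 2 and 6 of 12 called lower. The part of neuronal content and RNA integrity in the receptor values was not tested. The calls rest on few arrays, since the NT array has no replicate and the fit has 2 residual degrees of freedom. Without any one of the 4 GFP+ and GFP+/- arrays, or with a prior variance that does not follow intensity, 0 receptor genes were called in GFP+ against NT cells, and in GFP+/- against NT cells 4 were called without either GFP+ array and 0 without either GFP+/- array or with that prior.

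**Figure D2:**
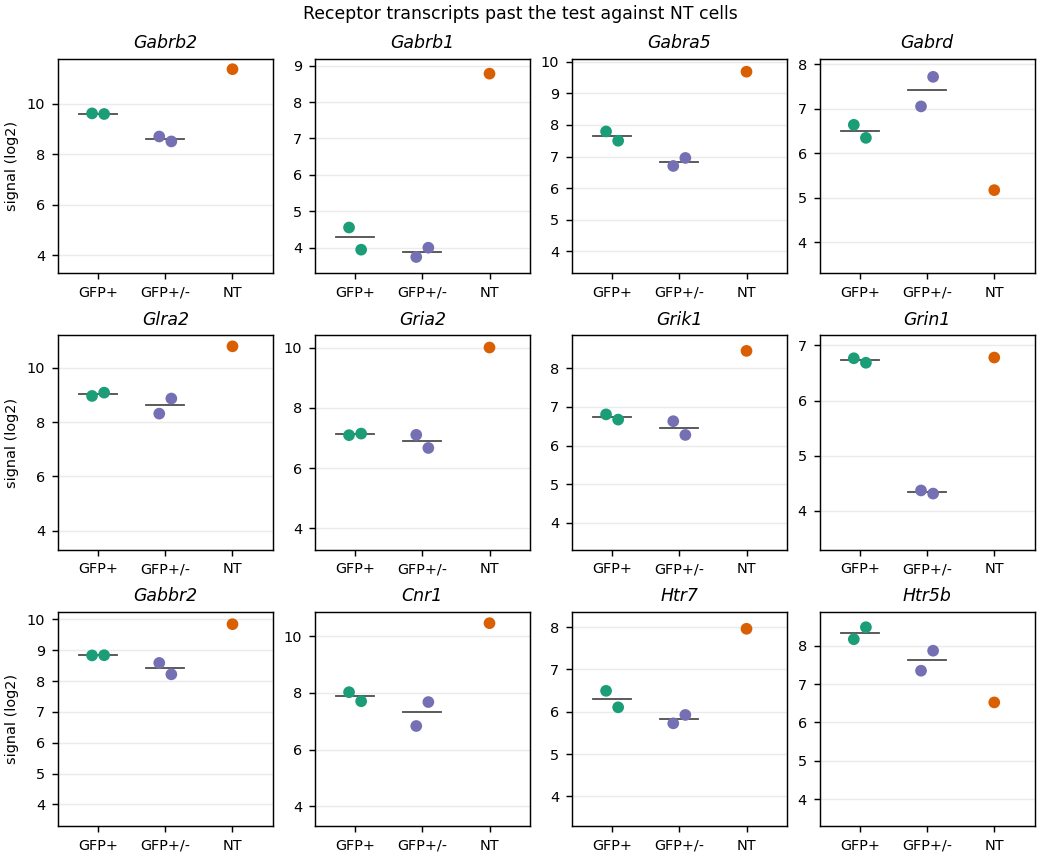
MAS 5.0 signal (log2 axis, a scale of its own for each gene) of the 12 receptor genes called in GFP+ or GFP+/- against NT cells. Each point is an array and each line the mean of 2 arrays. In 9 of the 12 panels the NT array stands above both other populations, in those of *Gabrd* and *Htr5b* it stands below them, and in that of *Grin1* it lies beside the GFP+ arrays.

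GABA-A receptors are chloride channels of alpha, beta and further subunits, and 15 of their genes were measured, rho subunits included. *Gabrb2*, a beta subunit, had signals of 790 and 777 on the GFP+ arrays and 419 and 366 on the GFP+/- arrays, against 2658 on the NT array. The 3 populations did not overlap, and GFP+ cells lay between GFP+/- and NT cells. The log2 difference of GFP+ cells was 1.00 from GFP+/- (SE 0.17, adjusted p = 0.145, limma) and -1.76 from NT cells (SE 0.21, adjusted p = 0.0147). GFP+/- cells differed from NT cells by -2.76 (SE 0.21, adjusted p = 0.00978), the smallest adjusted p of any receptor gene. *Gabrb1*, another beta subunit, had 23.5 and 15.4 in GFP+ and 13.4 and 16 in GFP+/- cells, against 440 in NT cells. All 4 transfected arrays were dim beside the NT array. The difference from NT cells was -4.53 in GFP+ (SE 0.58, adjusted p = 0.0158) and -4.91 in GFP+/- cells (SE 0.58, adjusted p = 0.0141). Its size is uncertain at such low signals, and with 16 added to each signal it was -3.69 in GFP+ and -3.89 in GFP+/- cells. The alpha subunit *Gabra5*, known for receptors outside synapses, had 222 and 181 in GFP+ and 104 and 124 in GFP+/- cells, against 826 in NT cells. As for *Gabrb2*, the populations did not overlap and GFP+ cells lay in between. The difference from NT cells was -2.04 in GFP+ (SE 0.30, adjusted p = 0.0206) and -2.86 in GFP+/- cells (SE 0.30, adjusted p = 0.0109). Over the alternative settings other than leaving out an array, the adjusted p of *Gabrb2*, *Gabrb1* and *Gabra5* in GFP+ against NT cells reached at most 0.0946, 0.0659 and 0.0853.

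*Gabrd*, the delta subunit of receptors outside synapses, went the other way. Its signals were 99.8 and 81.4 in GFP+ and 133 and 211 in GFP+/- cells, against 36.0 in NT cells. The NT array was the lowest and the GFP+/- arrays the highest. GFP+/- cells differed from NT cells by 2.22 (SE 0.45, adjusted p = 0.0402, limma), whereas the difference of 1.32 in GFP+ cells did not pass (adjusted p = 0.144). With 16 added to each signal, the call in GFP+/- cells was lost (adjusted p = 0.0511), and its adjusted p ranged between 0.0345 and 0.0955 over the alternatives other than leaving out an array. A second *Gabrd* probe set had 94.2 and 69.7 in GFP+ and 167 and 91.6 in GFP+/- cells, against 77.9 in NT cells, and its difference from NT cells was 0.06 in GFP+ (adjusted p = 0.965) and 0.67 in GFP+/- cells (adjusted p = 0.511). The other GABA-A and rho genes were not called. They included *Gabrg1*, a gamma subunit, with 76.0 and 83.6 in GFP+ and 36.4 and 24.2 in GFP+/- cells, against 87.5 in NT cells (GFP+ minus GFP+/- 1.43, SE 0.42, adjusted p = 0.254). *Gabra3*, an alpha subunit, had 95.3 and 49.7 in GFP+ and 26.5 and 25.7 in GFP+/- cells, against 62.3 in NT cells. On these probe sets the GFP+ arrays were above the GFP+/- arrays in both genes. The other *Gabra3* probe set had 8.4 and 8.42 in GFP+ and 4.93 and 19.6 in GFP+/- cells, against 25.6 in NT cells. Its GFP+ and GFP+/- arrays overlapped (-0.22, adjusted p = 0.931, limma). The family's largest difference between GFP+ and GFP+/- cells was in *Gabrr3*, a rho subunit, at 1.55 (SE 0.53, adjusted p = 0.294), with signals of at most 35.7. Over the 15 genes the median of GFP+ minus GFP+/- cells was 0.30, beside 0.11 over all genes, and 12 were above 0.

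The promoters of *Gabrb2* and *Gabrb1* are shown because these 2 beta subunits were both called lower in GFP+ and in GFP+/- cells than in NT cells and have a motif in common. Each runs 250 bases before to 50 after the annotated start, in RefSeq's rat assembly GRCr8, at chr10:27439543-27439842 on the plus strand and chr14:36902844-36903143 on the minus strand. Capitals mark the core that nuclear respiratory factor 1 (NRF1) binds.
Gabrb2: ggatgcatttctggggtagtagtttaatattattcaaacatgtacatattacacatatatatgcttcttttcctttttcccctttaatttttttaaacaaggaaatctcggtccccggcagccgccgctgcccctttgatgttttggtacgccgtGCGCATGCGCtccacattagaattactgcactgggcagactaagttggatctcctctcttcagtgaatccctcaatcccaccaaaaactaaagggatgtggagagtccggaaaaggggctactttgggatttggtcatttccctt
Gabrb1: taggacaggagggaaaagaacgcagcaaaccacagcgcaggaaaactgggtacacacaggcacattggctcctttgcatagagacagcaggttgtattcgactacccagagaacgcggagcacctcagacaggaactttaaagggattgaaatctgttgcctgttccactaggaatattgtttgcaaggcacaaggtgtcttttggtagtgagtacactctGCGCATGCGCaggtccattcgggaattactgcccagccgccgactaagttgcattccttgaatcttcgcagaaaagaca
The motif ends 85 bases before the start in *Gabrb2* and 19 bases before it in *Gabrb1*. The longest stretch that both promoters hold, TGCGCATGCGC, contains it, and the next longest are GACTAAGTTG and GAATTACTGC. The NRF1 core, searched with either pyrimidine at its sixth base, was in 2.09% of 33469 RefSeq promoters of this length, and in these 2 of the 67 receptor genes with a promoter entry. Of the 12 called genes, 10 had an entry. Searched on both strands, the TATA box TATAAA was in 14.2% of all promoters and, of the 10, in *Glra2*. The CCAAT box CCAAT was in 37.5% of promoters and in *Gabrb1* and *Htr5b*. The GC box GGGCGG was in 33.1% of promoters, in 32 of the 67 receptor genes, and in *Gabbr2*, *Gabra5*, *Gabrd*, *Glra2*, *Grin1* and *Htr5b*. GCGTGGGCG, the site of EGR1, whose last letters can overlap a GC box, was in 0.544% of promoters and in *Htr7*. For the repressor REST, which silences neuronal genes in other cells, the left arm TTCAGCACC was in 0.356% of promoters and in none of the 67, and the right arm GGACAGC was in 6.59% and in *Glra2*. The cAMP response element TGACGTCA was in 1.83% of promoters and in none of the 67. These matches describe letters in a window and do not show binding.

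Glycine receptors are chloride channels too, and 3 alpha subunits were measured. *Glra2*, the alpha subunit typical of the fetal brain, had 500 and 544 in GFP+ and 318 and 468 in GFP+/- cells, against 1778 in NT cells. The NT array was above the other 4, and the GFP+ arrays were above the GFP+/- arrays. The difference from NT cells was -1.77 in GFP+ (SE 0.29, adjusted p = 0.0248, limma) and -2.20 in GFP+/- cells (SE 0.29, adjusted p = 0.0155). The difference of 0.44 between GFP+ and GFP+/- cells did not pass (SE 0.23, adjusted p = 0.491). *Glra1* and *Glra3* had signals of at most 54.2 on their brightest probe sets and were not called. Another *Glra1* probe set had 77.5 and 17.8 in GFP+ and 12.8 and 15.3 in GFP+/- cells, against 73.8 in NT cells. There GFP+ minus GFP+/- cells was 1.41 and GFP+/- minus NT cells -2.4 (adjusted p = 0.497 and 0.192, limma).

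Of the ionotropic glutamate receptor genes, 16 were measured, and *Gria2* changed most among those called. This AMPA subunit keeps calcium from passing through the channel. It had 137 and 142 in GFP+ and 138 and 102 in GFP+/- cells, against 1029 in NT cells. The 2 transfected populations overlapped, and both lay far below the NT array. The differences from NT cells were -2.88 in GFP+ (SE 0.32, adjusted p = 0.0132, limma) and -3.11 in GFP+/- cells (SE 0.32, adjusted p = 0.0109). The other AMPA genes, *Gria1*, *Gria3* and *Gria4*, had signals of at most 80.7 and were not called. *Grik1*, a kainate receptor subunit, had 112 and 102 in GFP+ and 99.1 and 77.4 in GFP+/- cells, against 351 in NT cells. It was lower in both populations than on the NT array, with differences of -1.72 in GFP+ (SE 0.36, adjusted p = 0.0452) and -2.0 in GFP+/- cells (SE 0.36, adjusted p = 0.0292). The related *Grik2* had 142 and 94.6 in GFP+ and 99.1 and 130 in GFP+/- cells, against 252 in NT cells, and neither difference passed (-1.12 and -1.15, adjusted p = 0.164 and 0.154). *Grik4* and *Grik5* encode the kainate subunits that need a partner subunit to form a channel. *Grik4* had 177 and 241 in GFP+ and 198 and 172 in GFP+/- cells, against 165 in NT cells. *Grik5* had 265 and 247 in GFP+ and 219 and 228 in GFP+/- cells, against 235 in NT cells. Neither differed past the test in any comparison.

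NMDA receptors all contain the subunit encoded by *Grin1*. Its brightest probe set had 109 and 103 in GFP+ and 20.7 and 19.9 in GFP+/- cells, against 110 in NT cells. The GFP+/- arrays alone were low. The ratio of averaged signals of GFP+ over GFP+/- cells, 5.24, was the highest of the 91 genes, with a log2 difference of 2.39 (SE 0.38, unadjusted p = 0.00087, adjusted p = 0.143, limma). GFP+/- cells differed from NT cells by -2.44 (SE 0.46, adjusted p = 0.0333), and GFP+ cells differed from NT cells by -0.05 (SE 0.46, adjusted p = 0.963). The other 3 *Grin1* probe sets differed among themselves. One had 32.9 and 28.8 in GFP+ and 46.7 and 34.3 in GFP+/- cells, against 151 in NT cells, so that both populations were below the NT array (-2.29 in GFP+ and -1.91 in GFP+/- cells, adjusted p = 0.0541 and 0.0806). Another had 23.7 and 12.2 in GFP+ and 23.5 and 49.8 in GFP+/- cells, against 15.4 in NT cells. The third had 9.01 and 9.14 in GFP+ and 4.29 and 5.77 in GFP+/- cells, against 6.54 in NT cells, with the GFP+/- arrays lowest as in the brightest probe set. Their log2 differences of GFP+ from GFP+/- cells were -0.38, -1.01 and 0.87, and with the mean of the 4 probe sets GFP+/- minus NT cells was -0.90 (adjusted p = 0.378). On their brightest probe sets, the subunits that bind glutamate varied less. *Grin2b*, which predominates before birth in rodents, had 318 and 386 in GFP+ and 314 and 357 in GFP+/- cells, against 347 in NT cells. *Grin2a* had 175 and 252 in GFP+ and 197 and 156 in GFP+/- cells, against 159 in NT cells. *Grin2c* had 121 and 112 in GFP+ and 131 and 172 in GFP+/- cells, against 131 in NT cells. *Grin3a*, which binds glycine, had 117 and 72.9 in GFP+ and 157 and 134 in GFP+/- cells, against 106 in NT cells. On these probe sets the GFP+ arrays were below the GFP+/- arrays for *Grin2c* and *Grin3a* (-0.37 and -0.65, adjusted p = 0.627 and 0.490, limma). The other *Grin2c* probe set had the same order (-0.67, adjusted p = 0.508), and its GFP+/- minus NT cells was 1.24 (adjusted p = 0.173). Further *Grin3a* probe sets gave -0.24 and 0.37 with overlapping arrays (adjusted p = 0.862 and 0.846). The brighter of them was above NT cells by 1.67 in GFP+ and 1.91 in GFP+/- cells (adjusted p = 0.145 and 0.104). None of these 4 genes was called in any comparison. *Grina*, which is no receptor subunit, had 1954 and 1867 in GFP+ and 1624 and 1775 in GFP+/- cells, against 1214 in NT cells, and was not called either.

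Nicotinic receptors are cation channels, and none of their 15 genes was called in any comparison by limma. At an unadjusted p under 0.05, 3 were higher and 0 lower in GFP+ than in GFP+/- cells, where 8.7% of all genes were higher and 5.07% lower. Against NT cells 1 was higher and 1 lower in GFP+ cells (14.3% and 12.0% of all genes). The same numbers held in GFP+/- cells (13.0% and 14.0% of all genes). *Chrna7* encodes the subunit of a calcium-permeable channel built of one subunit type. Its brightest probe set had 210 and 193 in GFP+ and 91.1 and 61.2 in GFP+/- cells, against 144 in NT cells. GFP+ arrays were highest and GFP+/- arrays lowest, and the difference between these 2 populations was 1.43 (SE 0.32, unadjusted p = 0.00467, adjusted p = 0.182, limma). The other 2 *Chrna7* probe sets gave 0.39 and 0.28 (adjusted p = 0.607 and 0.784). There the NT array was the highest, at 161 and 139, and GFP+ minus NT cells was -0.19 and -0.96 (adjusted p = 0.82 and 0.279). *Chrnb4*, a beta subunit of autonomic ganglia and the habenula, had 236 and 307 in GFP+ and 179 and 203 in GFP+/- cells, against 241 in NT cells. *Chrng*, the gamma subunit of fetal muscle, had 419 and 452 in GFP+ and 420 and 443 in GFP+/- cells, against 370 in NT cells. *Chrnb1*, the beta subunit of muscle, had 155 and 159 in GFP+ and 182 and 191 in GFP+/- cells, against 182 in NT cells. *Chrnd*, the delta subunit of muscle, had 118 and 90.9 in GFP+ and 60.6 and 17.7 in GFP+/- cells, against 66.1 in NT cells. Of these 3 muscle genes, *Chrnd* alone had both GFP+ arrays above both GFP+/- arrays by over 2-fold in the averaged signals, at a log2 difference of 1.66 (SE 0.65, adjusted p = 0.346). Striated muscle markers (9 of 10 on the array) summed to 1624 and 1448 in GFP+ and 1202 and 1086 in GFP+/- cells, against 1085 in NT cells, and their part in these values was not tested. Over the 15 nicotinic genes, 11 were above 0 in GFP+ minus GFP+/- cells, with a median of 0.34, beside 0.11 over all genes.

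GABA-B receptors couple to inhibitory G proteins and need both of their subunits. *Gabbr2*, the subunit that contacts the G protein, had 456 and 458 in GFP+ and 385 and 298 in GFP+/- cells, against 920 in NT cells. All 3 populations were separate, with GFP+ in between. The difference from NT cells was -1.01 in GFP+ (SE 0.25, adjusted p = 0.0675, limma) and -1.44 in GFP+/- cells (SE 0.25, adjusted p = 0.0276). *Gabbr1*, the subunit that binds GABA, had 623 and 715 in GFP+ and 569 and 582 in GFP+/- cells, against 768 in NT cells, and was not called. The order of the populations was the same as for *Gabbr2*, with smaller differences. Another *Gabbr1* probe set, with a mean signal of 543 beside 651 for the brightest, went against this order. It had 594 and 527 in GFP+ and 611 and 617 in GFP+/- cells, against 365 in NT cells. There the log2 differences from NT cells were 0.62 in GFP+ and 0.75 in GFP+/- cells (adjusted p = 0.147 and 0.0922, limma). A further one gave 0.38 in GFP+ and -0.24 in GFP+/- cells. The remaining, dimmer *Gabbr1* probe set also went against the order. It had 159 and 155 in GFP+ and 208 and 184 in GFP+/- cells, against 10.9 in NT cells. Its log2 difference from NT cells was 3.85 in GFP+ (adjusted p = 0.0104) and 4.17 in GFP+/- cells (adjusted p = 0.0109). As the mean of its 4 probe sets, the log2 difference of *Gabbr1* was 1.16 for GFP+ against NT cells (adjusted p = 0.0459), and as the mean of its 3 that of *Gabbr2* was 0.15 for GFP+/- against NT cells (adjusted p = 0.860), so the direction depends on the probe set in both genes.

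*Cnr1*, the cannabinoid receptor that reduces transmitter release from nerve endings, had 261 and 209 in GFP+ and 114 and 205 in GFP+/- cells, against 1416 in NT cells. The NT array was far above the other 4. Its difference from NT cells was -2.60 in GFP+ (SE 0.40, adjusted p = 0.0231, limma) and -3.21 in GFP+/- cells (SE 0.40, adjusted p = 0.0152). GFP+ and GFP+/- cells differed by 0.61 (SE 0.33, adjusted p = 0.493). *Cnr1* has 1 probe set.

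Among 13 serotonin receptor genes, *Htr5b* was the one receptor transcript called higher in GFP+ cells against NT cells. It encodes a receptor of rodents. Its signals were 288 and 358 in GFP+ and 163 and 234 in GFP+/- cells, against 91.9 in NT cells. The populations did not overlap, with GFP+ highest and NT lowest. GFP+ cells differed from NT cells by 1.81 (SE 0.35, adjusted p = 0.0379, limma), from GFP+/- cells by 0.72 (SE 0.28, adjusted p = 0.352), and GFP+/- from NT cells by 1.09 (SE 0.35, adjusted p = 0.121). *Htr7*, which raises cAMP, is named here after its values were seen. It had 90.1 and 68.8 in GFP+ and 52.9 and 60.7 in GFP+/- cells, against 249 in NT cells. The NT array was the highest, and the difference from it missed the threshold in GFP+ (-1.66, SE 0.42, adjusted p = 0.0706) and passed it in GFP+/- cells (-2.13, SE 0.42, adjusted p = 0.0358). The other *Htr7* probe set had 38.6 and 27.6 in GFP+ and 62.8 and 23.3 in GFP+/- cells, against 38.1 in NT cells, with differences from NT cells of -0.22 in GFP+ (adjusted p = 0.903) and 0.00 in GFP+/- cells (adjusted p = 0.998). *Htr3a*, the serotonin-gated channel, had 392 and 884 in GFP+ and 763 and 635 in GFP+/- cells, against 346 in NT cells. Its 2 GFP+ arrays were over 2-fold apart and enclosed both GFP+/- arrays. Another *Htr3a* probe set had 94.4 and 101 in GFP+ and 179 and 207 in GFP+/- cells, against 93.4 in NT cells. There the GFP+ arrays were below the GFP+/- arrays (-0.98, SE 0.28, unadjusted p = 0.0129, adjusted p = 0.238). The dimmest one gave -0.27 with overlapping arrays (adjusted p = 0.872). *Htr6*, which also raises cAMP, had 274 and 256 in GFP+ and 182 and 215 in GFP+/- cells, against 229 in NT cells. *Htr4* had 42.8 and 39.0 in GFP+ and 108 and 73.3 in GFP+/- cells, against 71.7 in NT cells, and was one of the 2 receptor genes lower in GFP+ than in GFP+/- cells at an unadjusted p under 0.05 (-1.12, SE 0.40, unadjusted p = 0.0319, adjusted p = 0.307). *Htr2a*, with signals of at most 14.1 on its brightest probe set, was the other. Further *Htr4* probe sets gave -1.81 and -0.1 for GFP+ minus GFP+/- cells (adjusted p = 0.201 and 0.95).

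The remaining G protein-coupled families, of metabotropic glutamate, muscarinic, dopamine and adrenergic receptors, had no called gene. At an unadjusted p under 0.05, *Adrb1*, a beta adrenergic receptor, was their 1 gene that was higher in GFP+ against NT and in GFP+/- against NT cells (adjusted p = 0.169 and 0.0770, limma). *Grm4*, a metabotropic glutamate receptor that inhibits release, had 453 and 477 in GFP+ and 344 and 587 in GFP+/- cells, against 734 in NT cells. *Grm3*, which also couples to inhibitory G proteins, had 189 and 152 in GFP+ and 222 and 206 in GFP+/- cells, against 279 in NT cells. Both were highest on the NT array, at differences of -0.66 and -0.72 for GFP+ cells (adjusted p = 0.331 and 0.211). *Chrm3*, a muscarinic receptor that releases calcium from stores, had 309 and 372 in GFP+ and 251 and 415 in GFP+/- cells, against 366 in NT cells. *Drd3*, an inhibitory dopamine receptor, had 363 and 457 in GFP+ and 375 and 418 in GFP+/- cells, against 476 in NT cells. *Drd5*, a dopamine receptor that raises cAMP, had 210 and 336 in GFP+ and 174 and 232 in GFP+/- cells, against 233 in NT cells. On the brightest probe sets of these 3 genes the GFP+ and GFP+/- arrays overlapped. Of the adrenergic receptors, *Adra1d*, which releases calcium from stores, had 302 and 282 in GFP+ and 287 and 226 in GFP+/- cells, against 220 in NT cells. *Adra2b*, which lowers cAMP, had 154 and 253 in GFP+ and 201 and 176 in GFP+/- cells, against 149 in NT cells. *Adrb3*, best known from fat tissue, had 195 and 151 in GFP+ and 121 and 109 in GFP+/- cells, against 141 in NT cells. On these probe sets the GFP+ and GFP+/- arrays overlapped for *Adra1d* and *Adra2b* and were separate for *Adrb3* (0.58, SE 0.28, adjusted p = 0.439, limma). *Adrb1* had 53.1 and 50.7 in GFP+ and 80.4 and 68.9 in GFP+/- cells, against 21.0 in NT cells. Its GFP+ arrays were below the GFP+/- arrays (-0.52, adjusted p = 0.615). The other *Adra1d* probe set, with signals of at most 19.5, had that order too (-1.16, adjusted p = 0.426). Between GFP+ and GFP+/- cells, the differences of the 5 dopamine genes lay between -0.23 and 0.40 and those of the 6 alpha adrenergic genes between -0.42 and 0.37.

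**Figure D3:**
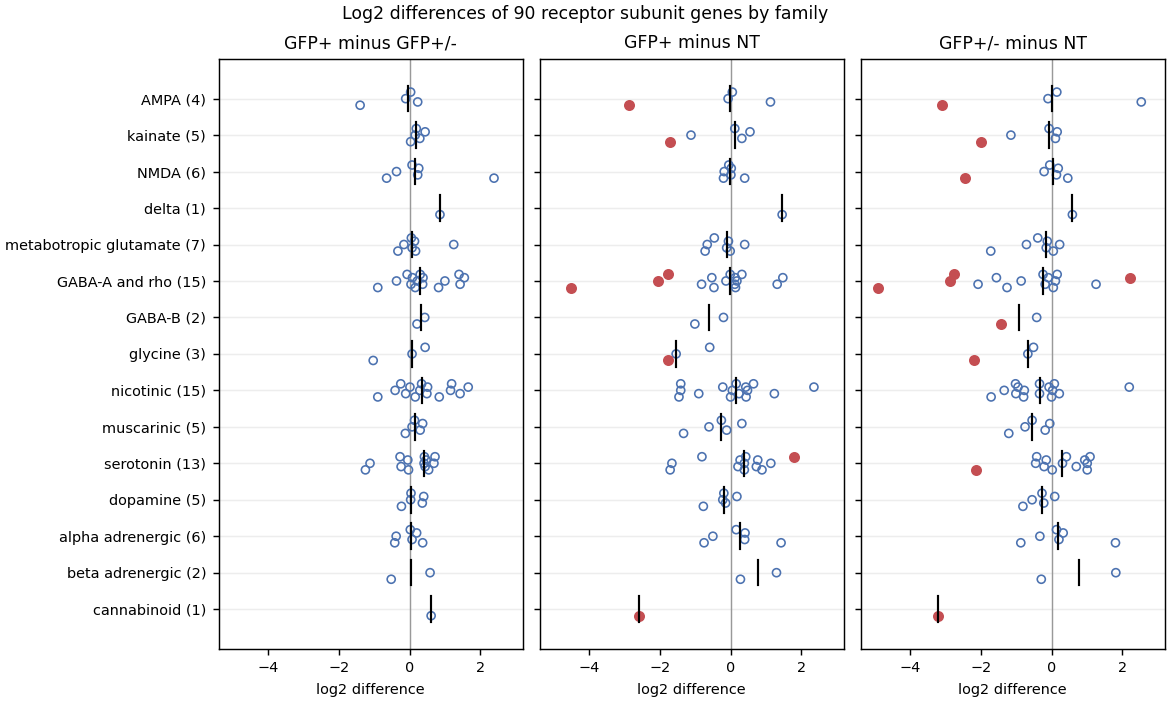
Log2 difference of each of the 90 receptor subunit genes (points) by family, with the number of genes in brackets and the family's median as a bar, for GFP+ minus GFP+/-, GFP+ minus NT and GFP+/- minus NT cells. Filled red points passed an adjusted p of 0.05 (0, 8 and 11 genes). Most families have medians near 0, with genes called lower than in NT cells in the AMPA, kainate, GABA-A, glycine and cannabinoid families for GFP+ cells, and in these and the NMDA, GABA-B and serotonin families for GFP+/- cells.

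The array holds more than one probe set for 35 of the 91 genes. Of their 50 other probe sets, 2 were among the brightest 41%. The sign of the difference was that of the brightest probe set in 29 of 50 for GFP+ against GFP+/- cells, in 22 of 50 for GFP+ against NT cells and in 32 of 50 for GFP+/- against NT cells. The second probe set of *Gria2* had 86.4 and 83.1 in GFP+ and 61.7 and 67.8 in GFP+/- cells, against 77.3 in NT cells, and showed no fall (GFP+ minus NT 0.13, adjusted p = 0.893, limma). That of *Gabrb2* had 26.8 and 13.7 in GFP+ and 13.1 and 12.2 in GFP+/- cells, against 33.5 in NT cells, in the order of the brighter one (GFP+ minus NT -0.81, adjusted p = 0.551). That of *Gabra5* had signals of at most 20.9 and a difference of -2.47 (adjusted p = 0.0755). With the mean of all probe sets of a gene, the calls in GFP+ against NT cells of *Gria2*, *Gabrb2* and *Gabra5* were lost (adjusted p = 0.0572, 0.0946 and 0.0649). The other 5 genes called there, *Gabrb1*, *Glra2*, *Grik1*, *Cnr1* and *Htr5b*, have 1 probe set each, so this setting does not bear on them.

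**Figure D4:**
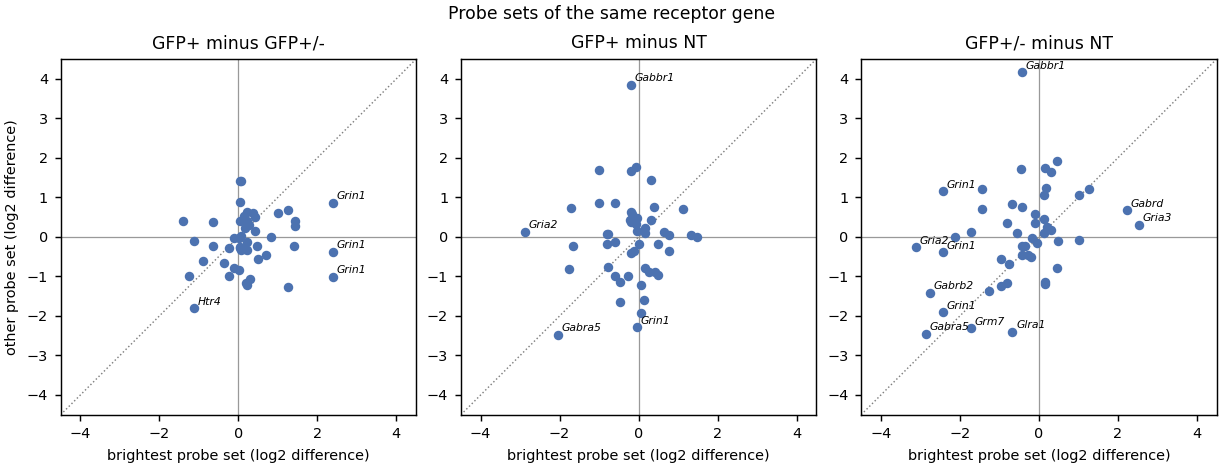
Log2 difference of each of the 50 other probe sets (vertical axis) against that of the brightest probe set of the same receptor gene (horizontal axis), for GFP+ minus GFP+/-, GFP+ minus NT and GFP+/- minus NT cells. The dotted line marks equal values. The *Gabbr1* probe set at the top of the right 2 panels lies opposite to the brightest one, and *Gabra5* lies near the dotted line.

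Partners of the receptors were described from lists of genes. Over all genes, 4.31% were called higher and 4.1% lower in GFP+ against NT cells, and 4.54% and 5.32% in GFP+/- against NT cells. Of scaffold, trafficking and desensitisation genes, 34 of 45 were on the array, and the 1 called in each comparison with NT cells was *Gphn*. Gephyrin, its product, anchors glycine and GABA-A receptors at synapses. *Gphn* had 305 and 243 in GFP+ and 183 and 158 in GFP+/- cells, against 681 in NT cells, with GFP+ cells in between as for *Gabrb2* and *Gabra5*. Its difference from NT cells was -1.32 in GFP+ (SE 0.28, adjusted p = 0.0468, limma) and -2.0 in GFP+/- cells (SE 0.28, adjusted p = 0.0185). The list's median log2 differences were 0.17 for GFP+ against GFP+/-, 0.09 for GFP+ against NT and 0.01 for GFP+/- against NT cells. Of G protein genes, 25 of 41 were measured, and 3 were called higher and 1 lower in each comparison with NT cells. The higher ones were *Gnai2* and *Gna12* in both, with *Gnao1* in GFP+ and *Gng5* in GFP+/- cells. The lower one was *Gng10* in GFP+ and *Gnaz* in GFP+/- cells. *Gnai2*, an inhibitory alpha subunit, had 3765 and 2993 in GFP+ and 4876 and 4460 in GFP+/- cells, against 849 in NT cells. Its 4 transfected arrays were above the NT array, with log2 differences of 1.98 in GFP+ (adjusted p = 0.0145) and 2.46 in GFP+/- cells (adjusted p = 0.0109). Of transmitter enzymes, 16 of 21 were measured, and those called were lower than in NT cells, 1 in GFP+ and 2 in GFP+/- cells. *Gad1*, which makes GABA, had 2385 and 2329 in GFP+ and 1328 and 1804 in GFP+/- cells, against 3830 in NT cells. The NT array was the highest, with differences from it of -0.70 in GFP+ (adjusted p = 0.152) and -1.31 in GFP+/- cells (adjusted p = 0.0331). *Ddc*, which makes dopamine and serotonin, had 20.1 and 20.5 in GFP+ and 25.5 and 19.9 in GFP+/- cells, against 147 in NT cells, and was lower in both (-2.85 and -2.70, adjusted p = 0.0379 and 0.0397).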

How the data were processed

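Signals were taken from the table of 5 rat arrays that the authors deposited. The authors made 1 MAS 5.0 signal, a linear intensity, for each probe set and scaled each array by 1 factor. The mean signal that the paper's methods give as the scaling target is lower than the trimmed mean of 500 of the deposited signals. The version of MAS 5.0 and any further step are not given in the sources used here. Of 8799 probe sets, 59 controls were left out. The platform annotation gave 1 gene for 7006 of the other 8740, several for 308 and none for 1426, and all 91 receptor symbols were found in RefSeq's GRCr8 gene table. Signals under 1 were set to 1 before log2. In R 4.3.3, limma 3.58.1 fitted all 5 arrays together, with a mean for each population and a prior variance that follows intensity, and the steps were tested on simulated data. Tables and promoter searches were made in Python 3.11.15. Detection calls were left out.

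Named with every array were receptor genes among the brightest 41% of probe sets, up to 8 higher and 8 lower in GFP+ than in GFP+/- cells with separate arrays and a mean signal of at least 100 in one of them, up to 8 called against NT cells, and *Chrna7*. Extremes of a family were added, and *Gabrg1*, *Gabra3* and *Htr4* were named outside this rule with their values known. The members, the lists of partners and markers and this rule were chosen with earlier results of these data known. Alternatives were quantile normalization, equal medians, 16 added to each signal, the brightest 41% only, a prior without a trend, the GFP+ and GFP+/- arrays only with and without a replicate block, the average over all probe sets of a gene, and each GFP+ or GFP+/- array left out.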

Additional observations from a re-analysis of the deposited data

How the results depend on the processing

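The 11 called genes other than *Htr7*, which was not tried, kept their direction under quantile normalization, equal medians, 16 added to each signal, the other prior and each array left out, and so did those of them among the brightest 41% when only these were fitted. The mean that picked this 41% includes the NT array. With 16 added, receptor genes over 2-fold numbered 5 higher and 0 lower for GFP+ against GFP+/-, 6 higher for GFP+ against NT and 5 higher for GFP+/- against NT cells. Among the brightest 41% only, these counts were 0 higher and 0 lower, 1 higher and 6 lower, and 2 higher and 6 lower, where fewer genes were tested. There, 144 probe sets and 1 receptor gene passed for GFP+ against GFP+/-, 1133 probe sets (738 over all) for GFP+ against NT, and 7 receptor genes for GFP+/- against NT cells. The median of the receptor genes for GFP+ against GFP+/- cells was 0.04 with quantile normalization and 0.02 with equal medians, against 0.17. Both settings remove a shift common to all probe sets by construction, and the receptor calls against NT cells numbered 8 and 11 under both. Without a trend in the prior, 2 probe sets passed in each comparison with NT cells (738 and 807 with it) and 0 receptor genes (8 and 11). With an average over all probe sets of a gene, 5 receptor genes were over 2-fold higher in GFP+ than in GFP+/- cells and 7 were called in GFP+/- against NT cells. It also turned *Gabbr1* in GFP+ against NT (1.16) and *Gabbr2* in GFP+/- against NT cells (0.15). In these comparisons the other probe sets of both genes had the opposite sign to the brightest one, and why they differ was not tested. With 1 array left out, which leaves 1 residual degree of freedom or takes a lone array to vary like the others, probe sets past the threshold numbered 1 for GFP+ against NT and 1 to 333 for GFP+/- against NT cells. Receptor genes then called numbered 0 for GFP+ against NT and 0 to 4 for GFP+/- against NT cells (*Gabrb2*, *Gabrb1*, *Gabra5* and *Gria2*), and 10 to 13 receptor genes were over 2-fold higher in GFP+ than in GFP+/- cells. With a replicate block for the numbers in the labels, 2 probe sets and 0 receptor genes passed for GFP+ against GFP+/- cells. The numbers were not taken as pairs, since deviations of same-numbered arrays correlated at 0.0632, and at 0.197 among the brightest 41%, over 2 pairs, which are too few to decide it. Dim probe sets vary most between arrays, which limits the values of receptors with low signals.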
